A study of Mus musculus with 2 samples.

Results

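The genes described here encode 10 proteins that turn arachidonic acid into prostaglandins, thromboxane, prostacyclin and leukotrienes: Ptgs1, Ptgs2, Ptges, Tbxas1, Ptgis, Alox5, Alox5ap, Alox15, Lta4h and Ltc4s. They were chosen by name, and every non-control probe carrying one of these gene names was taken, which gave 19 of the 56605 probes on the array. The cells were macrophages from the mouse peritoneum, kept in DMEM with serum, in 2 groups of strain bl6: wild type (WT) and MeXis null. MeXis is a noncoding RNA whose gene lies near that of the cholesterol transporter Abca1. The study asks how loss of MeXis bears on macrophage cholesterol efflux. RNA from 3 samples per genotype was pooled and hybridised to 1 one-colour Agilent array per genotype, so the spread between samples was averaged away before it could be measured. No age, sex, treatment or ligand, no method of drawing the cells and no description of the deleted allele is given in the labels.

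Arachidonic acid is freed from membrane lipids by phospholipases and from endocannabinoids by lipases. The cyclooxygenases Ptgs1 (the constitutive form) and Ptgs2 (the form induced by inflammatory signals) convert it to prostaglandin H, from which terminal synthases make the single prostanoids. In the other branch Alox5, presented with its substrate by Alox5ap, makes leukotriene A, which Lta4h converts to a neutrophil attractant and Ltc4s to the cysteinyl leukotrienes. Alox15 adds oxygen at another carbon of the fatty acid and is best known in mice from resident peritoneal macrophages and eosinophils.

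Each probe is a 60-base oligonucleotide printed as 1 spot. Letters of 3 of the 19 probes are shown. The Ptgis probe had the largest difference of any member probe, and the Ptges probe is the 5′-most of that gene. The Alox15 probe gave no signal above background on either array. They are written 5′ to 3′ in lower case throughout, with no part set apart, and places are on mm9, the build of the array's design.
Ptgis, base 1347 of its transcript, chr2:167032305-167032364: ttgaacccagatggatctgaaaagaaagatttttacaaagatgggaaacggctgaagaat
Ptges, base 364 of its transcript, chr2:30748214-30748273: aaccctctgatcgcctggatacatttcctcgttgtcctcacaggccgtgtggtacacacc
Alox15, base 1426 of its transcript, chr11:70159115-70159339: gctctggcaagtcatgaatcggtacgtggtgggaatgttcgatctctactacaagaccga
The Alox15 probe covers 225 bases of genome with its 60 letters, so it joins separate stretches of the chromosome. The files do not say which exon or which part of the messenger RNA a probe lies in, and no annotation on mm9 was used here.

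Signals below are processed signals, the background-subtracted brightness of a spot in scanner units, each followed by the scanner software's own error of that spot. A difference is MeXis null minus WT on the log2 scale, each array having been scaled to its own 75th percentile signal, and a probe counts as measured where the software marked it well above background on both arrays. With 1 array per genotype there was no replicate, no test and no p-value, and every difference is between these 2 arrays. Of the non-control spots, 48.0% on WT and 44.3% on MeXis null were well above background. The lowest such signal was 12.1 on WT and 27.3 on MeXis null, so a dim probe passed more easily on WT. For 285 probes printed at several places per array, the difference had a median SD of 0.47 over the repeat spots. A difference of 0.91 (1.88-fold), the normal 95% range of that SD, is taken as the limit of this spread for a probe with 1 spot, as every member probe has. A threshold of 2-fold, just outside this limit, is used for counts. A second value is given beside the differences of members and of the pathway genes named: the local surface correction, which takes the difference at each spot relative to the median of the 100 measured spots nearest to it. The limit of 0.91 was set from uncorrected differences, and the median SD over the repeat spots was 0.34 after this correction. The MeXis probe, at 12.3 (WT) and 8.44 (MeXis null), was above background on neither array, so it could not check the labels. All 10 general macrophage markers examined, among them Adgre1, Cd68, Lyz2 and Csf1r, were well above background on both arrays.

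Measured as genes, each read from its brightest measured probe, 7 of the 10 members were above background on both arrays. Alox5 was above background on WT only, and Ptgs2 and Alox15 on neither array. All 7 lay above 0, with a median difference of 0.31 against 0.06 over all 15488 genes measured. With this processing most genes thus lay above 0 as well. With the median of a gene's probes 6 of the 7 lay above 0, and Lta4h was at -0.15. Tbxas1 and Alox5ap, both at 0.01, lay below 0 with normexp background correction and with median, quantile or loess scaling, and Ptgs1 and Tbxas1 after the local surface correction. At 2-fold 1 of the 7 genes, Lta4h, was higher and 0 were lower, beside 7.68% of all genes higher and 4.55% lower, 12.2% in all, so the members' count lay near the background. After the local surface correction 0 of the 7 passed 2-fold, beside 7.26% of all genes. At 1.5-fold 2 members were higher (Lta4h and Ptges) and 0 lower, beside 19.3% higher and 13.8% lower, 33.1% in all. The split of all genes depended on the processing: 5.75% were higher and 5.18% lower with normexp background correction, 6.08% and 5.58% with loess scaling, and 3.82% and 3.44% with the local surface correction. Of the 19 probes, 13 were above background on both arrays, 1 on WT only, 1 on MeXis null only and 4 on neither. At 2-fold 2 of the 13 probes were higher and 1 was lower, beside 8.04% of all measured probes higher and 4.53% lower. Those 3 probes belong to Ptgis and Lta4h.

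**Figure D1:**
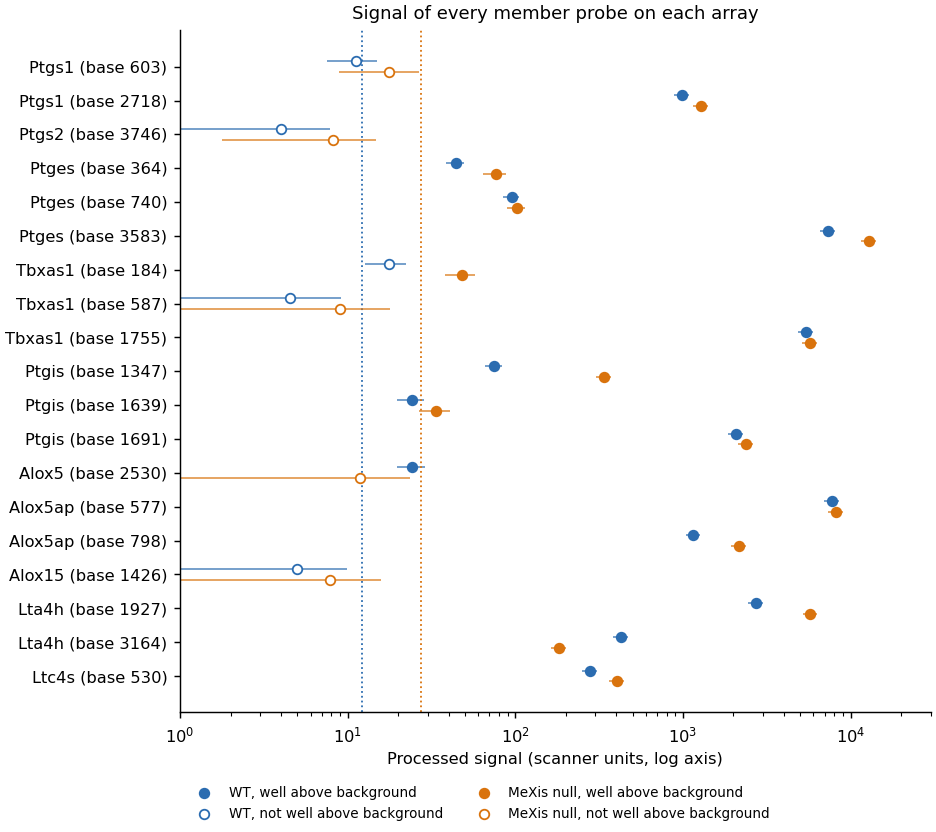
Processed signal (x axis, log scale, scanner units) of each of the 19 member probes, named by gene and first base in the transcript, on the WT array (blue) and the MeXis null array (orange). Bars are the scanner error and may run off the left edge, open circles are spots not well above background, and dotted lines mark the lowest signal well above background on each array, 12.1 on WT and 27.3 on MeXis null. The Ptgis probe at base 1347 is the one with the widest gap, and Ptgs2 and Alox15 lie left of both lines.

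Of the cyclooxygenases, Ptgs1 was the one measured. Its probe at base 2718 read 983 ± 98.4 on WT and 1281 ± 128 on MeXis null, 1.24-fold higher. That difference of 0.31 lay inside the limit of 0.91, and it was -0.03 after the local surface correction. The other Ptgs1 probe, at base 603 of another transcript, read 11.2 on WT and 17.7 on MeXis null, above background on neither array. The Ptgs2 probe read 4.02 ± 3.87 on WT and 8.22 ± 6.44 on MeXis null, its errors near the size of the signals. The inducible cyclooxygenase was therefore not well above background in either pool, and no fold is given.

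Ptges, the inducible microsomal prostaglandin E synthase, was measured by 3 probes, of which 2 were alike and 1 was near 0. The brightest, at base 3583, read 7348 ± 735 on WT and 12892 ± 1289 on MeXis null, for a difference of 0.74. The 5′-most probe shown above, at base 364, read 44.1 ± 5.49 on WT and 76.2 ± 11.8 on MeXis null, for a difference of 0.71. These probes, 3219 bases apart on the chromosome, thus differed from each other by 0.02 and were 1.67-fold and 1.64-fold higher. With normexp they stood apart, at 0.89 (base 3583) and 0.06 (base 364). The probe between them, at base 740, read 95.0 ± 10.3 on WT and 102 ± 12.9 on MeXis null, for a difference of 0.02 that was -0.07 with normexp. After the local surface correction the order of the 3 probes turned, with 0.22 at base 3583, 0.41 at base 364 and 0.73 at base 740. Before that correction no Ptges probe passed the limit of 0.91, which was set from uncorrected differences.

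Tbxas1, the thromboxane synthase of platelets and macrophages, differed little at its bright probe, which read 5412 ± 541 on WT and 5732 ± 573 on MeXis null. The difference was 0.01, or -0.34 after the local surface correction. A probe at base 184 of another transcript, whose letters join stretches within 1177 bases of genome, read 17.6 ± 4.83 on WT and 47.7 ± 9.82 on MeXis null. It was above background on MeXis null only and read 2.58-fold higher there against its own WT signal. That difference of 1.37 had a scanner error of 0.50 and was 0.996 after the local surface correction. Below, "at least" means that the dim array was taken at its detection limit, the lowest signal marked well above background. Where the signal of the probe itself was larger, that signal was used, and the fold is a plain ratio and not a bound. The probe at base 184 starts 102173 bases from the bright one on the chromosome. The third Tbxas1 probe, named from a brain clone, was above background on neither array.

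Ptgis, the prostacyclin synthase best known from blood vessel walls, gave the largest difference among the members, but at 1 of its 3 probes. The probe at base 1347 read 74.6 ± 8.38 on WT and 336 ± 34.0 on MeXis null, 4.28-fold higher. This difference of 2.10 lay far outside the limit of 0.91, and 0.26% of all measured probes were at least as high. Its 100 nearest spots had a median difference of 0.26, and the value after the local surface correction was 1.83. The brightest Ptgis probe, at base 1691 of the same transcript, read 2065 ± 207 on WT and 2383 ± 238 on MeXis null, for a difference of 0.13. The 2 probes start 344 bases apart in the transcript and 3609 bases apart on the chromosome, so spliced-out sequence lies between them. The nearest spots of the brightest probe had a median difference of -0.76, and its value after the local surface correction was 0.89. The third probe, at base 1639 of another transcript, which per the array files also holds the base 1347 probe, and 14988 bases from the first on the chromosome, read 24.0 ± 4.29 on WT and 33.8 ± 7.19 on MeXis null, for a difference of 0.42. All 3 probes read higher on MeXis null, and the dimmest was at -0.01 with loess scaling. The range between Ptgis probes was 1.97, or 1.5 after the local surface correction. Of the 5194 genes with at least 2 measured probes 4.29% had a range at least as wide, and the median range was 0.69. Read from its brightest probe, as in the gene counts above, Ptgis was 1.1-fold higher, so the choice of probe decides how the gene is described.

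**Figure D2:**
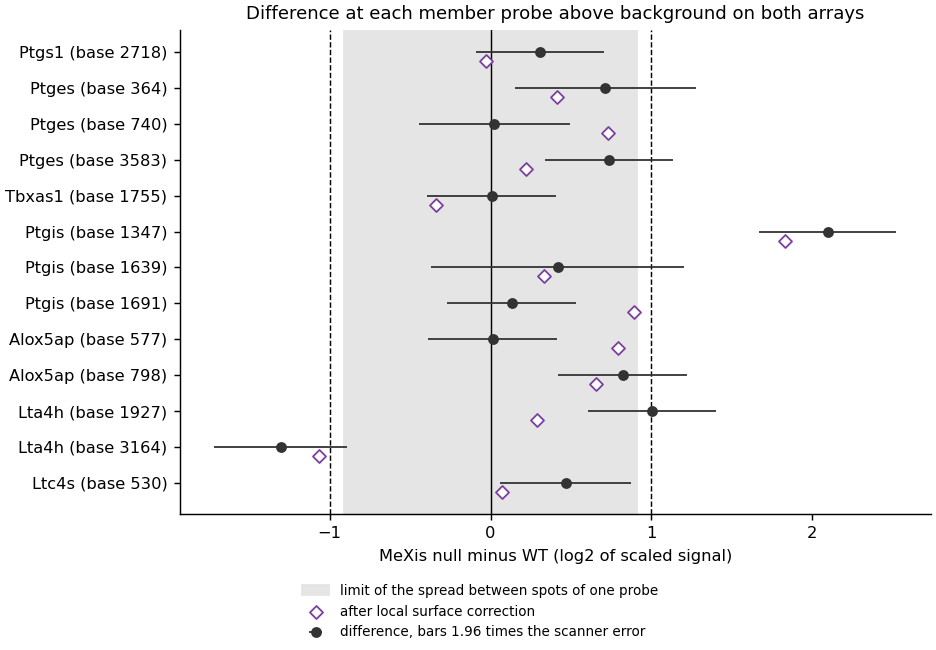
Difference of MeXis null minus WT (x axis, log2) at the 13 member probes above background on both arrays, with bars of the scanner error's normal 95% range. Open diamonds are the values after the local surface correction, the grey band is the limit of 0.91 from uncorrected spots of one probe, and dashed lines mark 2-fold. The Ptgis probe at base 1347 and the Lta4h probe at base 3164 lie outside the band in both forms, and the Lta4h probe at base 1927 moves into it.

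Of the leukotriene genes, Alox5 was near the lower end of detection. Its probe read 24.3 ± 4.49 on WT, where it was well above background, and 11.8 ± 11.8 on MeXis null, where the value is a surrogate that the software sets for a signal not distinct from background. The WT signal was under the lowest signal well above background on MeXis null once both were scaled, so no bound on a fold can be given. Alox5ap, which hands arachidonic acid to the enzyme, was bright. Its probe at base 577 read 7714 ± 771 on WT and 8195 ± 820 on MeXis null, for a difference of 0.01. Its probe at base 798 of a clone sequence, 225 bases away on the chromosome, read 1154 ± 115 on WT and 2147 ± 215 on MeXis null, for a difference of 0.82. The gap between these neighbouring probes was 0.81, and it was 0.14 after the local surface correction, when they stood at 0.79 and 0.65. Before that correction no Alox5ap probe passed the limit of 0.91, which was set from uncorrected differences.

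Lta4h, the hydrolase that makes leukotriene B, was measured by 2 probes that went opposite ways. The brighter, at base 1927 of its transcript, read 2721 ± 272 on WT and 5745 ± 575 on MeXis null. Its difference of 1.00, 2.0-fold higher, lay at the threshold for counting. The value was 0.94 with median scaling, 0.99 with quantile scaling, 0.54 with normexp and 0.29 after the local surface correction, and its nearest spots had a median difference of 0.71. The dimmer probe, at base 3164 of a clone from embryonic duct and 20632 bases away on the chromosome, read 427 ± 42.8 on WT and 182 ± 19.3 on MeXis null. It was 2.47-fold lower, a difference of -1.31 that was -1.07 after the local surface correction. The range between the Lta4h probes was 2.31, or 1.36 after the local surface correction, against the median of 0.69 over genes with at least 2 measured probes. Of those 5194 genes 102 had a range at least as wide, while 54.6% had probes of opposite sign.

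Ltc4s, which couples glutathione to leukotriene A, read 278 ± 28.2 on WT and 405 ± 41.3 on MeXis null. The difference of 0.47 lay inside the limit of 0.91 and was 0.07 after the local surface correction. Alox15, the last member, read 4.97 ± 4.99 on WT and 7.89 ± 7.91 on MeXis null at the probe shown above, and both values are surrogates. The transcript was thus not detectable at this signal in either pool. Alox15 is often taken as a gene of large peritoneal macrophages, and among 12 further markers of those cells 7 were measured, Gata6 at 415 and 683 among them. The other 5 (Timd4, F5, Ltbp1, Selp and Garnl3) were above background on neither array.

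**Figure D3:**
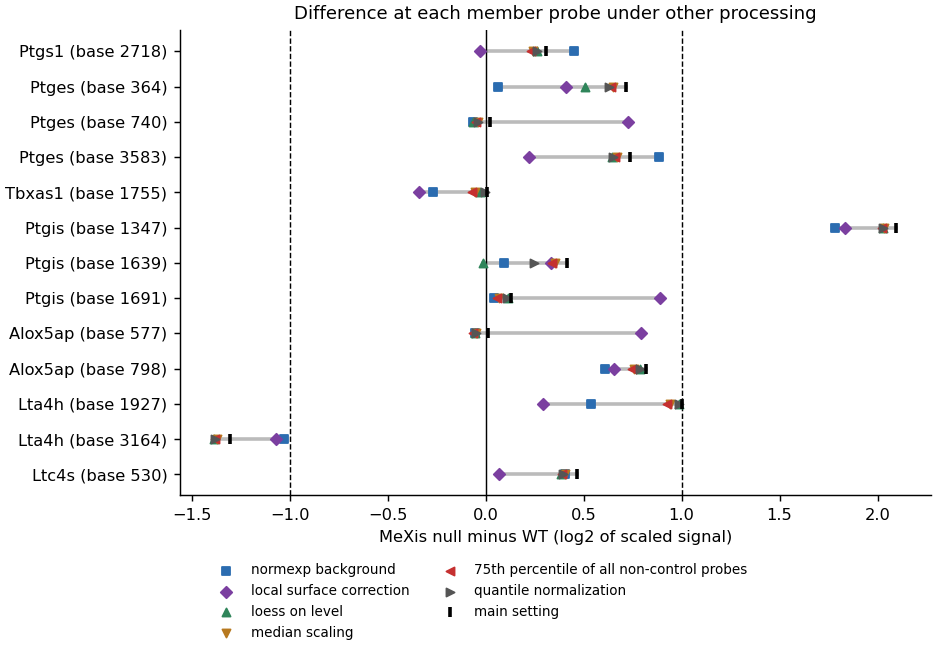
Difference of MeXis null minus WT (x axis, log2) at the 13 measured member probes in the main setting (black bar) and under 6 other settings (symbols), with a grey line over the range of all settings. The Ptgis probe at base 1347 stays between 1.78 and 2.10 and the Lta4h probe at base 3164 between -1.38 and -1.03. The local surface correction moves the Lta4h probe at base 1927 to 0.29 and the Alox5ap probe at base 577 to 0.79.

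The enzymes, carriers and receptors around the members were taken from a list of 89 further genes of the pathway. Of these 46 were measured, 8 were above background on 1 array only, 33 on neither, and 2 (Cotl1 and Ptges3) were left out because their spots carried an outlier mark of the software. Past 2-fold lay 9 of the 46, with 5 higher and 4 lower, beside the 7.68% and 4.55% of all genes, and their median was 0.41. The local surface correction left 1 higher and 3 lower past 2-fold, beside 3.82% and 3.44% of all genes, with a median of 0.16.

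Upstream of the cyclooxygenases, Mgll had the widest difference. It encodes monoacylglycerol lipase, which frees arachidonic acid from the endocannabinoid 2-arachidonoylglycerol. Its brighter probe read 28120 ± 2812 on WT and 7272 ± 727 on MeXis null, 4.07-fold lower, and the difference of -2.03 was -1.68 after the local surface correction. Its other probe read 5373 on WT and 4303 on MeXis null, for a difference of -0.39 that was -1.06 after that correction. Mgll was the 1 gene of 12 measured in this group past 2-fold, beside 4.55% of all genes lower. Of the 12, 6 lay above 0 and 6 below. Daglb, the lipase that makes 2-arachidonoylglycerol, differed by 0.23 at its brightest probe, or -0.03 after the local surface correction. Its dimmer measured probes differed by 0.84 and 0.93, or 0.40 and 0.34 after it. Pla2g7, the platelet-activating factor hydrolase, differed by 0.86, or 0.47 after that correction. The cytosolic phospholipase Pla2g4a, named after its value was seen, read 235 on WT and 470 on MeXis null, for a difference of 0.93, or 0.43 after the local surface correction.

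Among 8 measured genes of other prostanoid synthases and of prostanoid breakdown, 2 were 2-fold higher and 0 lower, beside 7.68% and 4.55% of all genes. Ptgr1, which reduces prostaglandins and inactivates leukotriene B, read 1035 ± 104 on WT and 3320 ± 332 on MeXis null, 3.05-fold higher. Its difference of 1.61 was 0.996 after the local surface correction, just under 2-fold. Cbr2, a carbonyl reductase, was 2.60-fold higher, at 96.2 on WT and 263 on MeXis null, and its difference of 1.38 was 0.89 after that correction. Hpgd, the dehydrogenase that starts prostaglandin breakdown, was above background on MeXis null only, with 16.1 on WT and 39.2 on MeXis null. It read 2.31-fold higher there, a plain ratio to its own WT signal. That difference of 1.21 had a scanner error of 0.44 and was 1.39 after the local surface correction. Akr1b3, an aldo-keto reductase with prostaglandin F synthase activity, differed by 0.59, or 0.28 after that correction, with probes of opposite sign. Fam213b, another prostaglandin F synthase, differed by 0.34, or 0.08 after it.

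Of 8 measured genes of leukotriene conversion and breakdown, 2 were 2-fold lower and 0 were 2-fold higher, beside 4.55% and 7.68% of all genes. Of the 8, 5 lay above 0 and 3 below. Mgst2, a microsomal enzyme that can make leukotriene C in cells without Ltc4s, read 156 ± 15.8 on WT and 68.2 ± 11.1 on MeXis null. It was 2.42-fold lower, and the difference of -1.27 was -1.17 after the local surface correction. Its relative Mgst1, a detoxifying glutathione transferase, was 2.14-fold lower at its brighter probe (29398 on WT, 14450 on MeXis null) but differed by 0.20 at the other. Its difference of -1.10 was -0.98 after the local surface correction, no longer past 2-fold. Mgst3 differed by 0.75 (0.65 after that correction) and the dipeptidase Dpep2, which trims leukotriene D to leukotriene E, by 0.43 (0.52 after it) at its brighter probe. The dimmer Dpep2 probe read 638 on WT and 1552 on MeXis null, 2.31-fold higher. Its difference of 1.21 was 1.18 after that correction. The 2 measured genes of the lipoxygenase group, Gpx4, which reduces lipid hydroperoxides, and Pebp1, a partner of Alox15, differed by 0.51 and 0.15, or 0.31 and 0.11 after it. Of the other 6 genes of that group, 5 (Alox12, Alox12b, Alox8, Alox12e and Aloxe3) were above background on neither array.

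In the epoxide branch, where cytochromes make epoxides from arachidonic acid and hydrolases open them, 2 of 5 measured genes were 2-fold higher, beside 7.68% of all genes. Cyp2j6 read 54.5 ± 7.67 on WT and 198 ± 22.3 on MeXis null, 3.44-fold higher, with a difference of 1.78 that was 1.38 after the local surface correction. It was the 1 gene of the 46 still 2-fold higher after that correction. The soluble epoxide hydrolase Ephx2 was 2.06-fold higher (184 on WT, 398 on MeXis null), or 0.60 on the log2 scale after that correction. The microsomal hydrolase Ephx1 differed by 0.25, or -0.04 after it, and Cyp2s1 by 0.18, or 0.59 after it.

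Of the carriers, Slco2b1, an organic anion transporter, read 5318 ± 532 on WT and 770 ± 77.8 on MeXis null, 7.27-fold lower. Its difference of -2.86 was -2.54 after the local surface correction. The prostaglandin exporter Abcc4 differed by 0.12, and its direction turned to -0.47 after that correction. The leukotriene C exporter Abcc1 differed by 0.60, or 0.21 after it, with probes of opposite sign. Of a list of 10 genes, made up of prostanoid receptors and the receptor partner Ptgfrn, 4 were measured. Ptger2, a receptor for prostaglandin E that raises cyclic AMP, read 161 ± 16.9 on WT and 414 ± 42.3 on MeXis null, 2.45-fold higher, and its difference of 1.29 was 0.97 after the local surface correction. Ptger4, which also raises cyclic AMP, lay the other way, at 1616 ± 162 on WT and 976 ± 98.0 on MeXis null. Its difference of -0.80 was inside the limit of 0.91, which was set before correction, and was -0.81 after that correction. Another Ptger4 probe differed by -0.23, or -0.08 after it. Ptgfrn, a membrane protein that binds the prostaglandin F receptor, differed by 0.92, or 0.59 after it. The leukotriene receptors lay near background. Ltb4r1 read 36.7 on WT and 39.3 on MeXis null, and Cysltr1 read 69.1 on WT and 47.2 on MeXis null. Their differences of 0.02 and -0.62 were -0.24 and 0.05 after the local surface correction, so both changed sign. Gpr17, a receptor related to the cysteinyl leukotriene receptors, had a signal of 436 in WT against 7.10 in MeXis null, above background in WT only, and was at least 16.9-fold lower in MeXis null.

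**Figure D4:**
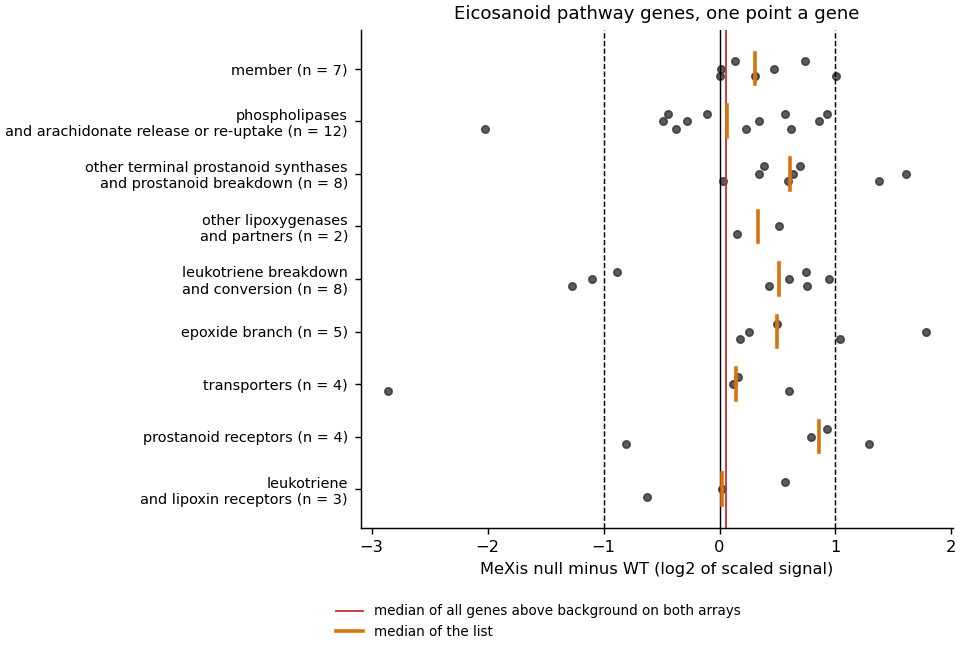
Difference of MeXis null minus WT (x axis, log2) of each measured gene, 1 point per gene read from its brightest probe, for the 7 measured members and the 46 other pathway genes by role. Orange bars are list medians, the red line is the median of all 15488 measured genes at 0.06, and dashed lines mark 2-fold. Slco2b1 at -2.86 and Mgll at -2.03 lie furthest left and Cyp2j6 at 1.78 furthest right, while the 7 members lie between 0.01 and 1.00.

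Markers of other cells, among them cells that make eicosanoids, were compared between the pools as well. Some measured mesothelial, fibroblast, endothelial, B cell, and small peritoneal macrophage and dendritic cell markers lay past 2-fold. Of the measured platelet, mast cell, eosinophil and neutrophil markers 0 lay past 2-fold. Cma1, Ear1 and Ear2, mast cell and eosinophil markers above background on WT only, were more than 2-fold lower in MeXis null. In bulk RNA a change in the share of a cell type and a change in RNA per cell cannot be told apart. The summed signals below are not scaled between arrays, and 1 bright gene can make up most of a sum. Mesothelial cells line the peritoneum, and 9 of their 11 markers on the array were measured, all higher on MeXis null under every scaling tried. Their median was 1.16, from Krt8 at 0.28 to Wt1 at 1.61, but 0.54 with normexp. With signals of at least 100 on both arrays 4 of these markers remained, with a median of 0.83. The summed signal of the 9 was 1028 on WT and 2478 on MeXis null. Gpm6a and Cldn15 were above background on neither array. Of 9 measured fibroblast markers 7 were higher, with a median of 0.76 (0.30 with normexp), from Fn1 at -0.23 to Fbn1 at 1.85. Their summed signals were 20591 (WT) and 25369 (MeXis null), of which Fn1 alone gave 13011 and 11709. Mfap5 and Dpt were above background on neither array, and Lum on WT only, at least 3.41-fold lower in MeXis null. These values stand beside the higher readings of Ptgis, Ptges, Ptger2 and Cyp2j6, and their part in them was not tested.

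Endothelial markers were few: 3 of 9 were measured, from Vwf at 0.13 to Esam at 1.11. Their summed signals were 5040 on WT and 5924 on MeXis null, of which Vwf alone gave 4647 and 5355. Cdh5, Tek, Emcn and Cldn5 were above background on neither array, Pecam1 on WT only (at least 2.25-fold lower in MeXis null) and Egfl7 on MeXis null only (at least 2.31-fold higher). Platelet markers stand beside Ptgs1 and Tbxas1: 3 of 11 were measured, from Pf4 at -0.60 to Clec1b at 0.17, with summed signals of 1624 and 1361, and the other 8, Itga2b and Ppbp among them, were above background on neither array. Mast cells and eosinophils are known sources of Ltc4s. Of 10 mast cell markers 2 were measured, Hdc at -0.31 and Tpsb2 at 0.29, with summed signals of 304 on WT and 369 on MeXis null, while Mcpt4, Tpsab1, Fcer1a, Ms4a2, Kit and Gata2 were above background on neither array. The other mast cell markers, Cma1 (60.6 on WT, 8.24 on MeXis null) and Cpa3 (37.1 and 6.32), were above background on WT only, at least 2.34-fold and 1.43-fold lower in MeXis null. Of 8 eosinophil markers 1 was measured, Siglecf at -0.73 (2430 on WT, 1538 on MeXis null), and Epx, Prg2, Ccr3 and Ear6 were above background on neither array. Ear1, Ear2 and Il5ra were above background on WT only. Ear2 read 1475 on WT and 34.3 on MeXis null, 45.3-fold lower, and Ear1 read 376 and 28.6, 13.8-fold lower. These folds are plain ratios, since each MeXis null signal exceeded the detection limit of 27.3 on that array. Ear1 and Ear2 are close copies of one ribonuclease gene family, so their probes may share signal. Neutrophil markers had a median of -0.45 over 5 measured of 10, from Csf3r at -0.76 to Elane at 0.21. Their summed signals were 20373 and 13390, of which Csf3r alone gave 18755 and 11696. S100a9, Ly6g, Ngp and Camp were above background on neither array and Cxcr2 on WT only. B cell markers had a median of -0.79 over 7 measured of 10, from Cd79b at -1.70 to Cd22 at -0.13, and summed signals of 3841 and 2508, while Blk was above background on neither array, and Ebf1 and Pax5 on WT only. Genes of small peritoneal macrophages and dendritic cells, which include class II genes, lay below 0 in 10 of 10 measured, or 9 of 10 with normexp, while Ccr2 and Cd209a were above background on neither array. Their median was -0.70, from Ciita at -1.76 to Retnla at -0.05, and their summed signals were 34651 and 24183. Large peritoneal macrophage markers went both ways, from Naip1 at -0.69 to F10 at 1.17. Their summed signals were 11208 and 19621, of which F10 alone gave 6476 and 15380. General macrophage markers ran from Mertk at -1.95 to Lyz2 at 1.25. The part of any of these lists in the members' values was not tested.

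**Figure D5:**
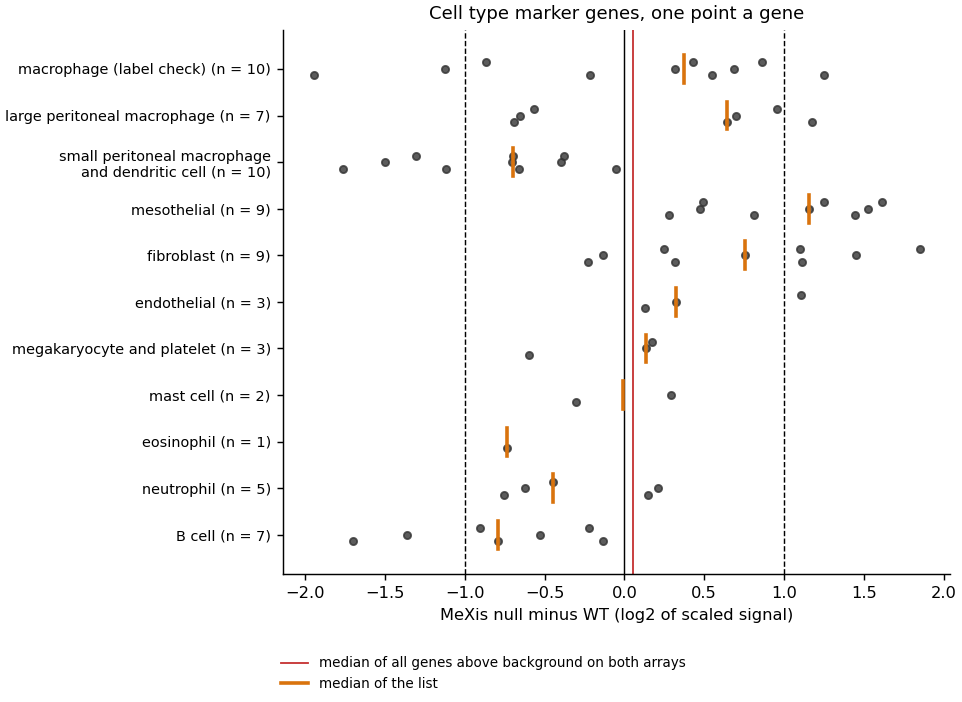
Difference of MeXis null minus WT (x axis, log2) of the measured marker genes of 11 cell types, 1 point per gene. Orange bars are list medians, the red line is the median of all measured genes and dashed lines mark 2-fold. The 9 mesothelial points lie above 0 around a median of 1.16, and the 10 points of small peritoneal macrophages and dendritic cells lie below 0 around a median of -0.70.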

How the data were processed

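Per the file headers, Agilent Feature Extraction 11.5.1.1 gave each of 62976 spots per array an intensity in linear scanner units, with background subtracted and spatial trends removed. The deposited table of the series held intensity values identical to those processed signals in 62976 spots, and 0 of its columns lacked a sample. Flags for background and outliers (other values) came from the deposited files.

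Here the log2 of each signal was taken relative to the array's 75th percentile, computed over spots well above background on both arrays. Spots with an outlier mark were left out (305 on WT, 205 on MeXis null, none of a member), and spots of one probe were averaged. Gene names are those in the files, with 1 listed gene, Prxl2b, found as Fam213b. No test was possible with 1 array per genotype. The steps were tested on simulated data with 200 changed genes. Normexp (offset 50) and loess (span 0.3) were run in limma 3.58.1 under R 4.3.3, and the rest in Python 3.11.15.

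The members, lists, settings and thresholds were chosen with earlier results of these data known, and an earlier analysis chose the local surface correction after seeing these arrays. Pathway genes were named if past 2-fold, or if above background on 1 array with a bound or plain ratio of 2-fold. The 2 brightest others of each list were named too. Of each marker list the highest and lowest gene were named, with genes above background on neither array. Markers above background on 1 array, and Gata6, were named after their values were seen.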

Additional observations from a re-analysis of the deposited data

How the results depend on the processing

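No paired analysis was possible because each genotype has 1 array. The median of the members (0.22 to 0.42) and of the other pathway genes (0.16 to 0.51) stayed above 0 under all 11 alternatives. The median of all genes moved as well, from 0.06 to 0.48 with no filter on dim probes, where the members were at 0.39 and the other pathway genes at 0.51. It lay just below 0 with median scaling (-0.01), a 75th percentile over every non-control probe (-0.02) and quantile normalization (-0.01). With loess and with the local surface correction it was -0.03. The 1 member past 2-fold, Lta4h, sat on the threshold: the count was 0 with normexp background correction, median scaling, a 75th percentile taken over every non-control probe, quantile normalization, loess, the local surface correction and the median of a gene's probes, where Lta4h was at -0.15, and 2 at 1.5-fold (beside 19.3% of all genes). With no filter 1 of 10 members, Alox5, was lower and 1, Lta4h, higher, beside 4.78% and 17.6% of all genes. Of other pathway genes past 2-fold, the higher count of 5 of 46 became 2 of 46 with normexp (5.75% of all genes), 1 of 46 with the local surface correction (3.82%), 13 of 87 with no filter (17.6%), 3 of 37 with signals of at least 100 (6.14%) and 18 of 46 at 1.5-fold (19.3%). The lower count of 4 of 46 became 7 of 87 with no filter (4.78%) and 7 of 46 at 1.5-fold (13.8%). Fewer or more genes pass by construction with a filter or threshold changed; otherwise the cause was not tested. Of 203 values of member genes and probes under alternatives, 190 lay within 0.47 of the main value, 12 moved further and 1 reversed. Many of the 203 could not move. The deposited values equal those used, no member spot had an outlier mark, and the filter settings left the counted values as they were. Most gene values also repeat those of the gene's brightest probe, so the count is no measure of stability. The Ptgis probe at base 1347 ran from 1.78 to 2.10 over 9 alternatives. With the local surface correction the median SD over repeat spots was 0.34, against 0.47. Signals near background (Ptgs2, Alox5, Alox15) allow no fold.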
